A study of Homo sapiens with 48 samples.

Results

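Ribosome biogenesis factors are the proteins that make ribosomes without being part of the finished particle. The 48 genes described here were taken by symbol from the gene count matrix. They are RNA polymerase I, nucleolar, pre-rRNA processing and subunit assembly factors. The list was not cut by a measured value, but it was chosen with earlier results of these data known. All 48 have a row among the 33892 rows of the matrix. The question was how their transcripts changed after carfilzomib, which blocks the proteasome irreversibly, relative to the solvent DMSO.

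Ribosomes are built in the nucleolus. RNA polymerase I transcribes one long precursor, which is folded, modified and cut into the 18S, 5.8S and 28S rRNAs while ribosomal proteins join it. Small nucleolar ribonucleoproteins (snoRNPs) guide the modifications, the small-subunit processome releases the future 40S particle, and further factors mature the 40S and 60S subunits up to their export to the cytoplasm. Many of these genes are known targets of the transcription factor MYC, and secretory cells such as plasma cells carry a high protein synthesis load.

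The 16 groups of 3 biological replicates were 8 human cancer cell lines, each grown in culture and kept for 24 h with DMSO or with carfilzomib. The lines were the colon cancer lines RKO and DLD-1, the lung cancer lines H-23 and H-1299, the pancreatic cancer lines PANC-1 and CAPAN-2, and the multiple myeloma lines H-929 and RPMI. Each line got its own concentration, set by its effect on proteasome activity according to the labels, and those concentrations were not used here, so that line and dose cannot be told apart. Library totals ran from 9.12 M to 64.4 M counts, and the 48 genes held 0.423% to 1.27% of them. The carfilzomib libraries of H-929 were the smallest of the series, at 9.93 M, 9.12 M and 9.16 M counts. Its DMSO libraries held 17.6 M, 18.9 M and 14.6 M, so depth went with treatment in that line. Summed plasma cell markers (9 genes such as JCHAIN and IRF4) lay at 6225 to 12588 CPM (the count scaled by library size and TMM within each line) in the DMSO libraries of the myeloma lines and at 77.1 to 536 CPM in the other 6 lines. Summed epithelial markers (8 genes) lay at 4199 to 14919.6 CPM in DLD-1, H-23, PANC-1 and CAPAN-2, at 884 to 991 CPM in H-1299 and at 167 to 190.1 CPM in RKO. CDH1 reached at most 2 counts in a library of H-1299 and 1 count in a library of RKO, so this defining epithelial gene was near 0 in both. Proteasome subunit genes, a known transcriptional readout of proteasome inhibition, were called higher in 19 to 29 of 29 in every line except RKO, where edgeR called 0 higher and 1 lower (1 higher and 4 lower at an unadjusted p under 0.05).

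For 4 of the 48 genes the value printed is uncertain. FBL, RRN3, UTP4 and BOP1 each have a pair of rows under an identifier that is not in the GENCODE 29 primary annotation, and the identifier that annotation gives for the symbol was not analysed here. FBL held 1 to 634 counts per library and RRN3 0 to 542, and their libraries scattered within groups, so their calls are counted below but rest on 1 or 2 libraries. FBL was not tested in RPMI and RRN3 not in H-929, because their counts were too low there. That left 46 genes tested in all 8 lines. The use of strand in counting is not given in the sources used here, and 14 of the genes overlap a gene on the opposite strand (WDR3 with SPAG17, MRTO4 with EMC1 and HEATR1 with LGALS8, for example), whose reads may be mixed in.

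The promoters were read from RefSeq (GRCh38.p14) because many members moved together in the myeloma lines. The search was for CACGTG, the E-box bound by MYC and its partners, whose reverse complement is itself, in windows from 250 bases before to 50 bases after the annotated start. A window was at hand for 42 of the 48 genes (not for NOP58, NOLC1, RRP1B, RRP12, BOP1 and DDX18), and the letters were in 16 of them (38.1%). They were in 8.77% of all genes with a window, in 11.7% of the protein-coding genes tested here, in 25% of 96 other ribosome biogenesis genes and in 6.56% of 61 cytosolic ribosomal protein genes. Leaving out FBL with its uncertain row, the 3 genes with the letters and the largest average response in either direction were MRTO4, DDX21 and RRP9. Their promoters follow from 250 bases before to 30 bases after the start, 5′ to 3′ on the gene's strand, with CACGTG in capitals.
MRTO4 (chr1:19251555-19251834, plus strand): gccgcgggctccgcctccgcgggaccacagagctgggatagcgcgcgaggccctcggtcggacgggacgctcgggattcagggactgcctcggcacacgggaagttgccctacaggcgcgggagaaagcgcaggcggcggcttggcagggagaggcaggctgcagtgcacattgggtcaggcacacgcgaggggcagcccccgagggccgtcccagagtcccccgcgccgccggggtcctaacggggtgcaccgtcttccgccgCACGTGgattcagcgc
DDX21 (chr10:68956397-68956676, plus strand): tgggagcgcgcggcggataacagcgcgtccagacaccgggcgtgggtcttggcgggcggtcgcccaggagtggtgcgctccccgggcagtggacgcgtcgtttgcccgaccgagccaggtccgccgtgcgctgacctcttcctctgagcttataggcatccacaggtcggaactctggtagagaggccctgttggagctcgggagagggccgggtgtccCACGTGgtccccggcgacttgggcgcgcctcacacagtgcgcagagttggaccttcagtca
RRP9 (chr3:51941875-51942154, minus strand): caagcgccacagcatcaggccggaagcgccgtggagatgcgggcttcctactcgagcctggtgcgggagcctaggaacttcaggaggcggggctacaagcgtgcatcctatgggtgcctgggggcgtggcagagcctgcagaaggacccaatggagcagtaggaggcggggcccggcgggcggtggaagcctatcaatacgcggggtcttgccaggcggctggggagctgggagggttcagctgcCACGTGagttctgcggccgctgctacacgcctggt

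In most of the other genes the letters also lay close to the start. The stretches below show them for factors of the small-subunit processome (NAT10, NOP14, UTP20, WDR43 and UTP18, which has the letters at 2 places), of 40S maturation (BYSL, LTV1 and PNO1) and of 60S assembly (GNL3, PES1 and NOP2), to let the flanks be compared.
NAT10 (chr11:34105603-34105630, plus strand): atgcgcttgcgCACGTGctgtctaccag
NOP14 (chr4:2963375-2963402, minus strand): ccgcggcccggCACGTGtcttagggtag
UTP20 (chr12:101280084-101280111, plus strand): ttttttccgtcCACGTGacccactcagg
WDR43 (chr2:28894659-28894686, plus strand): gcacggacgaaCACGTGgctgcagcggg
UTP18 (chr17:51260446-51260473, plus strand): ggagtgctggtCACGTGgcaagaggctg
UTP18 (chr17:51260539-51260566, plus strand): cagcgaggttcCACGTGagcgcctgcgt
BYSL (chr6:41921516-41921543, plus strand): tcttcagtcccCACGTGcgatccttccc
LTV1 (chr6:143843355-143843382, plus strand): tcctggggctgCACGTGtggtgaggcct
PNO1 (chr2:68157886-68157913, plus strand): gtgcagctgcgCACGTGtttcagccggc
GNL3 (chr3:52686027-52686054, plus strand): gcttcagttcaCACGTGgcgccagcgga
PES1 (chr22:30591881-30591908, minus strand): ccttggcagggCACGTGcgggaggaagt
NOP2 (chr12:6568242-6568267, minus strand): ggtccggattgCACGTGgagggccgc
The first C of the letters lay between -89 and 36 relative to the start, and the flanking bases differed from gene to gene. A match describes the letters only. The genes with them and those without differed little in response: the median difference between the myeloma and the carcinoma lines, described below, was -0.70 on the log2 scale for the 16 genes with the letters and -0.64 for the 26 without.

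In DMSO, the summed level of the 48 genes was highest in the myeloma lines. On a scale common to the 24 DMSO libraries it lay at 13007 to 13896 CPM in H-929 and at 11362 to 12175 CPM in RPMI. It was 8304 to 9556 CPM in H-1299, 8339 to 8717 CPM in H-23 and 7956 to 8359 CPM in RKO, and these 3 lines overlapped. Lower levels followed in DLD-1 (6398 to 6858 CPM), PANC-1 (5737 to 5837 CPM) and CAPAN-2 (4614 to 5259 CPM), without overlap between neighbours. The DMSO level of each of the 48 genes differed between lines, as did that of 98.8% of all genes tested.

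Per length of exon, the most abundant member in DMSO was NPM1, the nucleolar chaperone nucleophosmin, at 444 CPM per kb on average over the lines. NCL, which encodes nucleolin, followed at 148 CPM per kb and the RNA helicase gene DDX21 at 86.6 CPM per kb. NPM1 was above NCL in all 8 lines, from 233 ± 31.8 CPM per kb (SD, n = 3) in CAPAN-2 to 696 ± 18.1 in H-929. The order of NCL and DDX21 depended on the line. NCL reached 395 ± 24.7 CPM per kb in H-929 against 65 ± 3.31 for DDX21, whereas in PANC-1 it stood at 64 ± 2.57 against 104 ± 0.751; in DLD-1 both lay within their spread (93.1 ± 3.61 and 90.6 ± 1.85). At the low end stood PPAN, a 60S assembly factor, at 3.90 CPM per kb. Leaving out FBL and RRN3 with their uncertain rows, the pattern across lines was steepest for GRWD1, a histone-binding factor of 60S assembly, and NOB1, the nuclease that makes the 3′ end of 18S rRNA, whose highest line was 12.2-fold and 11.8-fold above the lowest; RRP12 spanned 2.03-fold.

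After carfilzomib the summed level moved far in the myeloma lines and little elsewhere. Scaled within each line, it went from 12200.0 ± 430.2 CPM (SD, n = 3) to 7489.5 ± 254 CPM in H-929 and from 10485 ± 286 to 7291 ± 156 CPM in RPMI, which is 38.6% and 30.5% less. In both lines every DMSO library was above every carfilzomib library. In the 6 carcinoma lines the change of the mean lay between -7.87% (CAPAN-2) and 4.36% (PANC-1), and the libraries of both treatments overlapped in RKO, H-23, H-1299 and CAPAN-2. They were apart in DLD-1, with carfilzomib lower, and in PANC-1, with carfilzomib higher. The sum leans on NPM1, NCL and DDX21, which together went from 2776 to 2288 CPM in DLD-1. The median member stood at 80.6 CPM in DMSO and 81.9 CPM after carfilzomib there, so the fall was not one of most members. In H-929 these 3 genes went from 5191 to 2973 CPM and in RPMI from 3449 to 2041 CPM. The median member also fell, from 136 to 87.4 CPM in H-929 and from 146 to 103 CPM in RPMI. A count is a share of a library, so a change common to all transcripts of a cell would not appear, and fewer cells of a type and less RNA per cell cannot be told apart in such bulk samples.

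**Figure D1:**
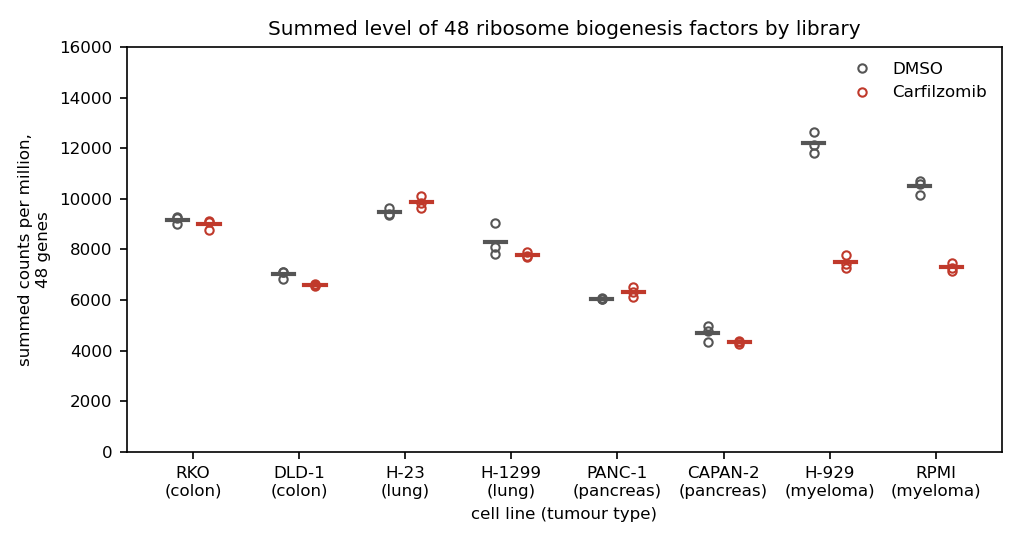
Summed CPM of the 48 ribosome biogenesis genes (vertical axis, from 0) in each of 48 libraries, by cell line, with 3 DMSO libraries (grey circles) and 3 carfilzomib libraries (red circles) per line and their mean (bar). The carfilzomib libraries of H-929 (7278 to 7771 CPM) and RPMI (7143 to 7455 CPM) lie below all DMSO libraries of the same line, and no carcinoma line shows a step of that size.

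Gene by gene, members were called at an adjusted p under 0.05 over all genes tested in that line. In H-929, 36 of 47 tested members fell and 0 rose by edgeR (DESeq2 also gave 0, and 0 were higher at an unadjusted p under 0.05, while 1 was called without DMSO replicate 2), where 26.2% of all genes were lower and 26.4% higher. In RPMI, 38 of 47 fell and 4 rose, against 32.2% and 31.3% of all genes. The median log2 fold change of the members was -0.66 in H-929 and -0.39 in RPMI, while that of all genes tested was 0.029 and 0.0069. A fall of at least 1.5-fold was called for 25 members in H-929 (15% of all genes) and for 14 in RPMI (17.6% of all genes). In both lines at once 32 of 46 members were lower, against 17.8% of all genes.

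The carcinoma lines fell into different patterns. In H-1299, 22 of 48 members fell and 13 rose (31.3% and 29.8% of all genes), and in CAPAN-2 21 fell and 10 rose (26.7% and 25.7%). The medians were -0.081 and -0.096. In PANC-1, 19 rose and 1 fell (20.5% and 18.2% of all genes), and in H-23 14 rose and 2 fell (17.7% and 16.2%), with medians of 0.091 and 0.066. The rises in these 2 lines were small, and all but RRP12 and, in H-23, FBL stayed under 1.5-fold. In DLD-1, 8 rose and 8 fell (10.9% and 12.1% of all genes). In RKO, 1 rose and 1 fell, where 3.62% and 5.28% of all genes did. Scaling to library totals in place of TMM changed the balance to 9 higher and 25 lower in H-1299, to 11 and 7 in H-23 and to 2 and 1 in RKO, and kept the sign of the members' median in each of the 8 lines. In H-1299 that scaling moved the median of all genes from -0.015 to -0.12. Single libraries weighed on the smaller counts: 19 higher members in PANC-1 became 12, 10 and 12 without DMSO replicate 2, DMSO replicate 3 and carfilzomib replicate 3. In DLD-1, 8 higher became 5 and 3 without carfilzomib replicates 1 and 3, and 8 lower became 5 and 4 without carfilzomib replicates 1 and 2. The single fall in RKO was lost without carfilzomib replicate 1 or 3. In PANC-1 the 1 fall became 2 without carfilzomib replicate 2 or 3, and in H-23 the 2 falls became 1 without DMSO replicate 1, DMSO replicate 3 or carfilzomib replicate 1.

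**Figure D2:**
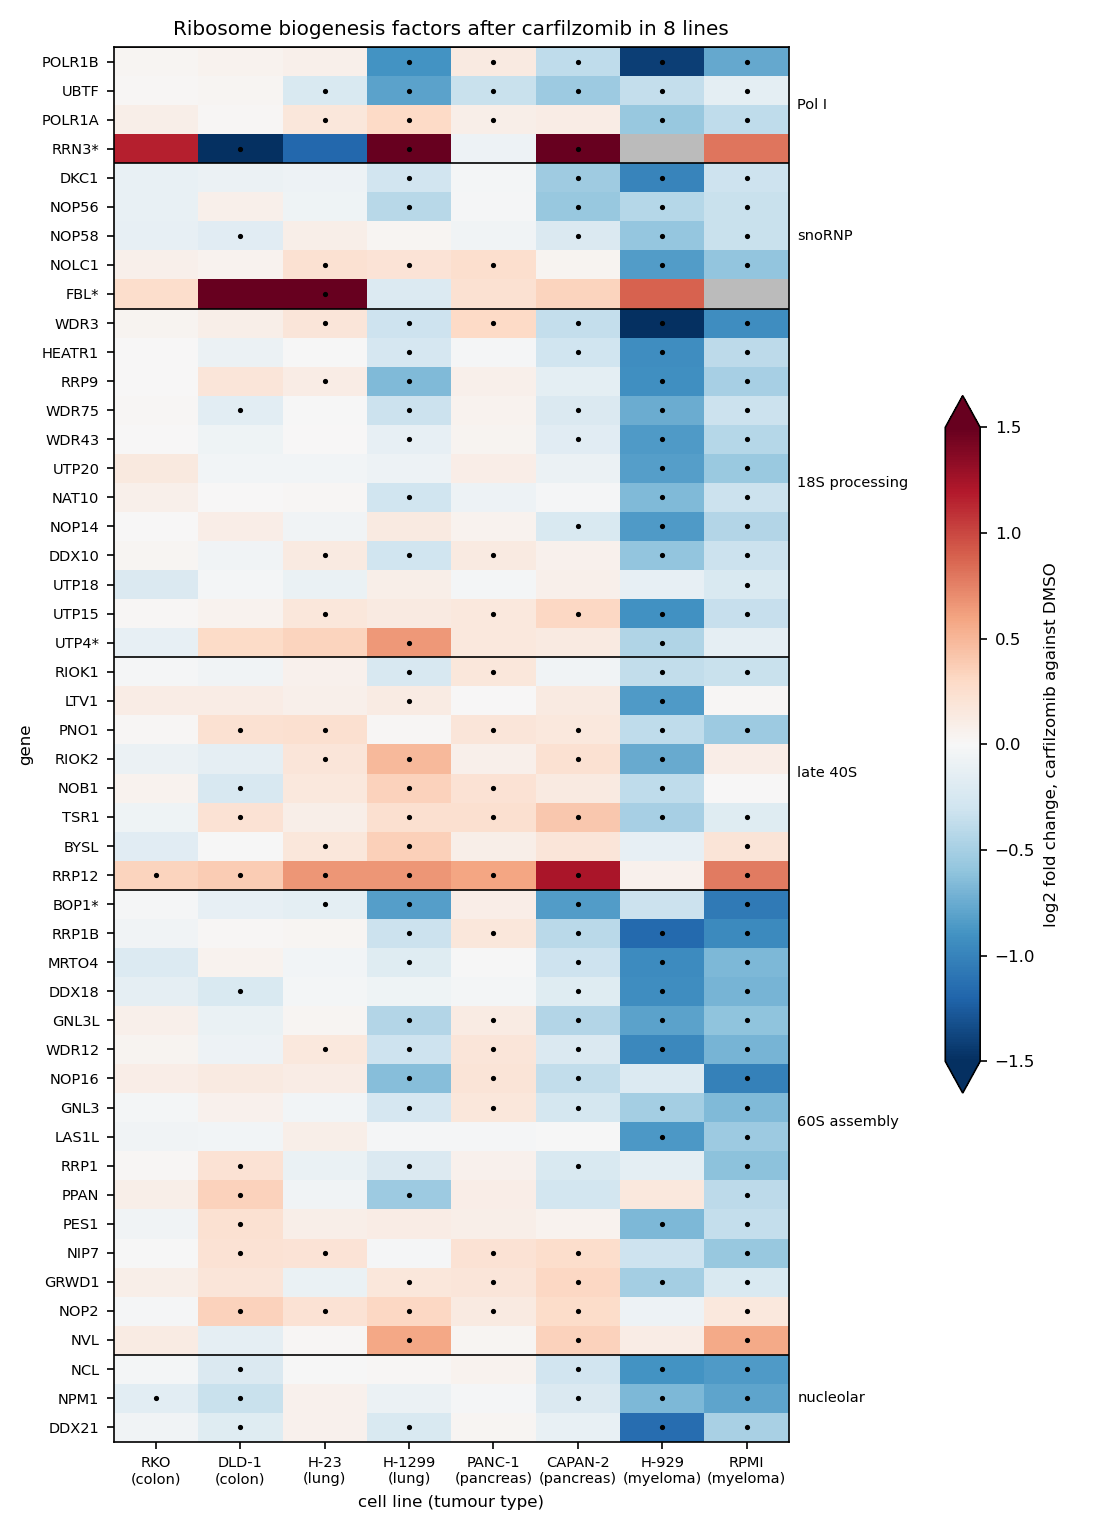
Log2 fold change of the 48 genes (rows, grouped by role) in 8 cell lines (columns), carfilzomib against DMSO with 3 libraries each; blue is lower and red higher after carfilzomib, the colour scale ends at 1.5, a dot marks an adjusted p under 0.05, grey was not tested, and an asterisk marks the 4 genes with uncertain rows. The myeloma columns are mostly blue, with 36 and 38 members called lower, while the row of RRP12 is red in 7 lines.

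Averaged over the 8 lines, 35 of 48 members were lower and 3 were higher, where 23.9% and 19.8% of all genes were, and the median was -0.20 on the log2 scale. The 5 largest falls were those of BOP1 (-0.45), POLR1B (-0.44), RRP1B (-0.38), WDR3 (-0.37) and DKC1 (-0.35), and the 3 rises those of RRP12 (0.55), NVL (0.16) and NOP2 (0.13). The error here comes from replicates within lines. Taking each line as 1 unit, limma called 0 members (10 at an unadjusted p under 0.05) and 0 genes in all (3249 unadjusted), so the average holds for these lines only. Without H-929 the number of higher members went from 3 to 9.

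The response differed between the 8 lines for 47 of 48 members, against 67.7% of all genes. It was lower in the myeloma lines than in the carcinoma lines for 43 members and higher for 0 by edgeR (0 at an unadjusted p under 0.05; library totals, RLE scaling and the fits without H-1299 or H-929 called 1, NVL, which was called lower without RPMI at -0.21, adjusted p = 0.014), while 25.2% of all genes were lower and 19.1% higher. BOP1 lost its call without RPMI (-0.16, adjusted p = 0.41) and NOP2 without H-929 (-0.096, adjusted p = 0.28). The median difference was -0.65 for the members and 0.064 for all genes. The largest differences were those of WDR3, -1.38 ± 0.055 (SE, adjusted p = 8.1e-25), RRP1B, -1.07 ± 0.052 (SE, adjusted p = 7.4e-22), and POLR1B, -1.04 ± 0.047 (SE, adjusted p = 9e-23). UBTF at -0.056 ± 0.044 (SE, adjusted p = 0.358), NVL at 0.070 ± 0.056 (SE, adjusted p = 0.375) and PPAN at -0.17 ± 0.11 (SE, adjusted p = 0.228) did not pass, nor did the uncertain FBL and RRN3. With cell lines as units, 2 against 6, limma called 16 members lower and 34 had an unadjusted p under 0.05, where 7.43% of all genes were called in either direction and 28.4% had such a p. WDR3 and RRP1B were among the 16 and POLR1B was not (adjusted p = 0.089). The fits over 48 libraries use 1 scaling, which lowers the log2 fold changes in H-929 by 0.16, in RPMI by 0.079 and in H-1299 by 0.070 relative to scaling within the line; with scaling within each line 42 members were lower and 1, NVL, was higher.

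**Figure D3:**
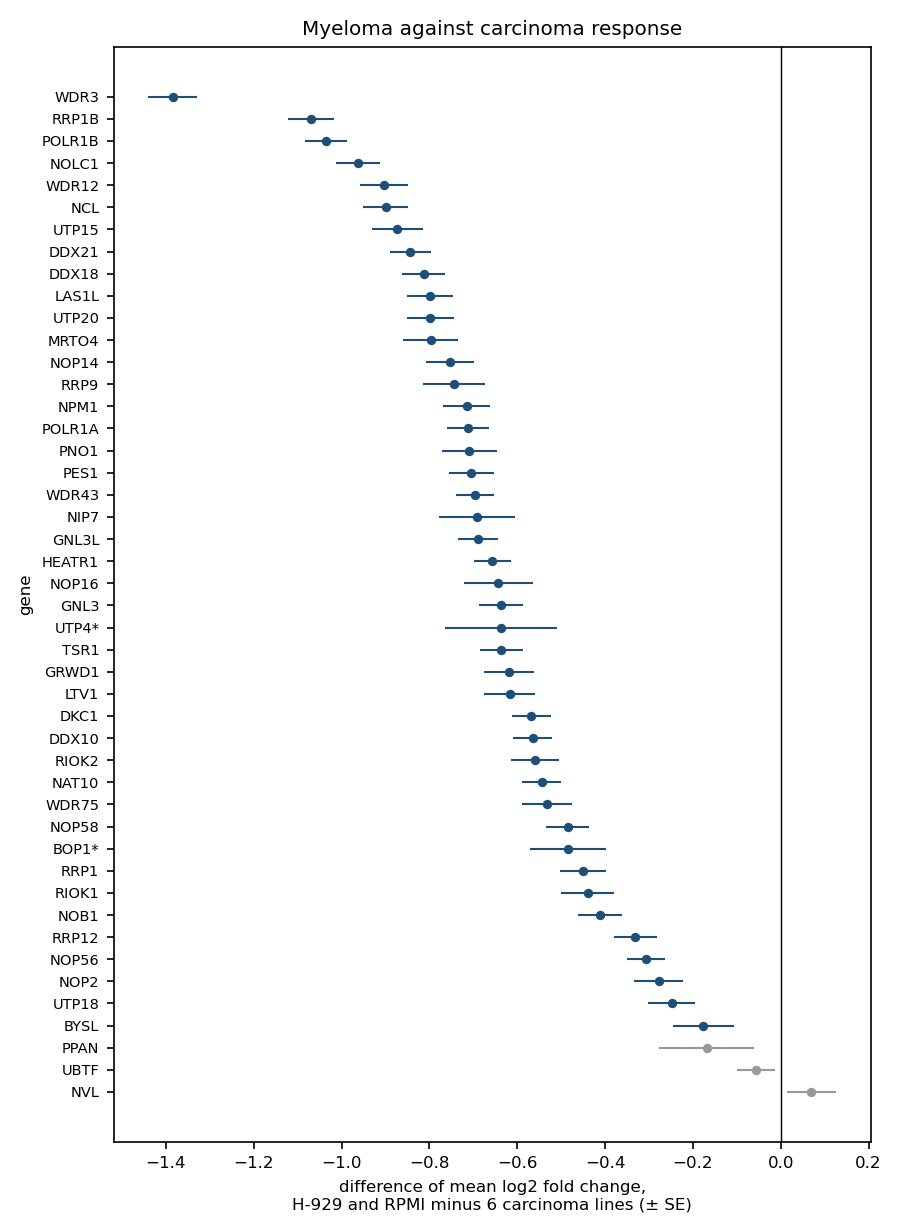
Mean log2 fold change of the 2 myeloma lines minus that of the 6 carcinoma lines (horizontal axis, point ± SE) for 46 genes, ordered by size; FBL and RRN3 are left out for their low counts and an asterisk marks 2 further genes with uncertain rows. The SE comes from replicates within lines. Dark points have an adjusted p under 0.05. WDR3 stands lowest at -1.38, and only PPAN, UBTF and NVL (grey) do not pass.

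Other measures moved in the same libraries. In H-929, 9 of 9 plasma cell markers were lower and their sum was 11867 to 12588 CPM in DMSO and 6191 to 6707 CPM after carfilzomib. In RPMI 8 of 9 were lower, with sums of 6225 to 7369 CPM and 1761 to 2146 CPM. Epithelial markers summed to 93.4 to 102 CPM in the carfilzomib libraries of H-929 and 42.1 to 55.3 CPM in its DMSO libraries, with KRT19, EPCAM and KRT20 at no more than 2 counts in any of them and all 3 tested markers higher. In RPMI they summed to 208 to 217 CPM in DMSO and 189 to 218 CPM after carfilzomib, with 2 of 5 higher and 3 lower. Of 14 cell cycle and replication genes, 13 were lower in each myeloma line, and 13 also in each of RKO, H-23 and CAPAN-2. Outside the introns of the members, 162 of 196 tested rows of small nucleolar RNAs were higher in H-929 and 58 of 182 in RPMI; in the carcinoma lines 0 to 38 were. The part of these in the fall of the members was not tested.

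The RNA polymerase I genes did not move as one. POLR1B, the second-largest subunit of the enzyme, had 93.8, 101 and 94.7 CPM in the DMSO libraries and 34.1, 34.5 and 39.8 CPM in the carfilzomib libraries of H-929, and 212, 204 and 211 CPM in the DMSO libraries and 118, 124 and 126 CPM in the carfilzomib libraries of RPMI. In H-1299 it had 121, 142 and 127 CPM in the DMSO libraries and 73, 66.6 and 70.6 CPM in the carfilzomib libraries. In all 3 lines the groups were well apart, with log2 fold changes of -1.42 ± 0.099 (SE, adjusted p = 4.9e-08), -0.77 ± 0.051 (SE, adjusted p = 2.1e-08) and -0.90 ± 0.062 (SE, adjusted p = 6.7e-08), the last the largest fall of a member in H-1299. POLR1B also fell in CAPAN-2, by a log2 fold change of -0.38, and rose in PANC-1 by 0.13 (adjusted p = 0.00965, and 0.057 without DMSO replicate 3). RKO, DLD-1 and H-23 gave 0.030, 0.047 and 0.080, not called.

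POLR1A, which encodes the largest subunit, moved the other way in part of the lines. In H-1299, where POLR1B fell, POLR1A had 135, 157 and 150.1 CPM in the DMSO libraries and 174, 182 and 186 CPM in the carfilzomib libraries, so that it was higher in every carfilzomib library, at 0.29 ± 0.056 (SE, adjusted p = 0.0005). It rose in H-23 as well (0.18), fell in H-929 (-0.57) and RPMI (-0.38), and its rise in PANC-1 (0.092, adjusted p = 0.0497) was lost under library totals and RLE scaling, with DESeq2 and without most single libraries. Its average over the lines, -0.063 ± 0.020 (SE, adjusted p = 0.00885), also lost its call under library totals (adjusted p = 0.31) and under scaling within each line (adjusted p = 0.46).

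UBTF, the upstream binding factor that opens rDNA for transcription, was the member called lower in the most lines, 6 of 8. Of the 46 members tested in all 8 lines it was the only member called lower in at least 6. Of all genes, 4.26% were, so the members as a set held no excess of such genes. In H-1299 it had 132, 137 and 131 CPM in the DMSO libraries and 77.6, 76.4 and 75.9 CPM in the carfilzomib libraries, a log2 fold change of -0.80 ± 0.042 (SE, adjusted p = 6.6e-09) with no overlap. It fell by a log2 fold change of -0.55 in CAPAN-2, -0.36 in H-929, -0.34 in PANC-1 and -0.23 in H-23, in the last 2 as the largest fall of a member. In RPMI the groups overlapped and the fall of -0.15 (adjusted p = 0.0399) was lost under library totals (adjusted p = 0.052) and without DMSO replicate 3 or carfilzomib replicate 2 or 3. Its difference between myeloma and carcinoma lines, -0.056, did not pass; without H-1299 it did, at -0.16, without CAPAN-2 at -0.11, without RPMI at -0.21 and without replicate 1 of every group at -0.14. RRN3, the initiation factor that recruits the polymerase, was called higher in H-1299 and CAPAN-2 and lower in DLD-1. In each of the first 2 cases 1 library carried the call: RRN3 had 0.163, 0.102 and 0.234 CPM in the DMSO libraries and 0.482, 5.95 and 0.348 CPM in the carfilzomib libraries of H-1299, and 0.534, 0.472 and 0.406 CPM in the DMSO libraries and 0.751, 0.559 and 5.79 CPM in the carfilzomib libraries of CAPAN-2. In DLD-1 it had 2.58, 4.01 and 0.291 CPM in the DMSO libraries and 0.128, 0.321 and 0.407 CPM in the carfilzomib libraries, with overlap.

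**Figure D4:**
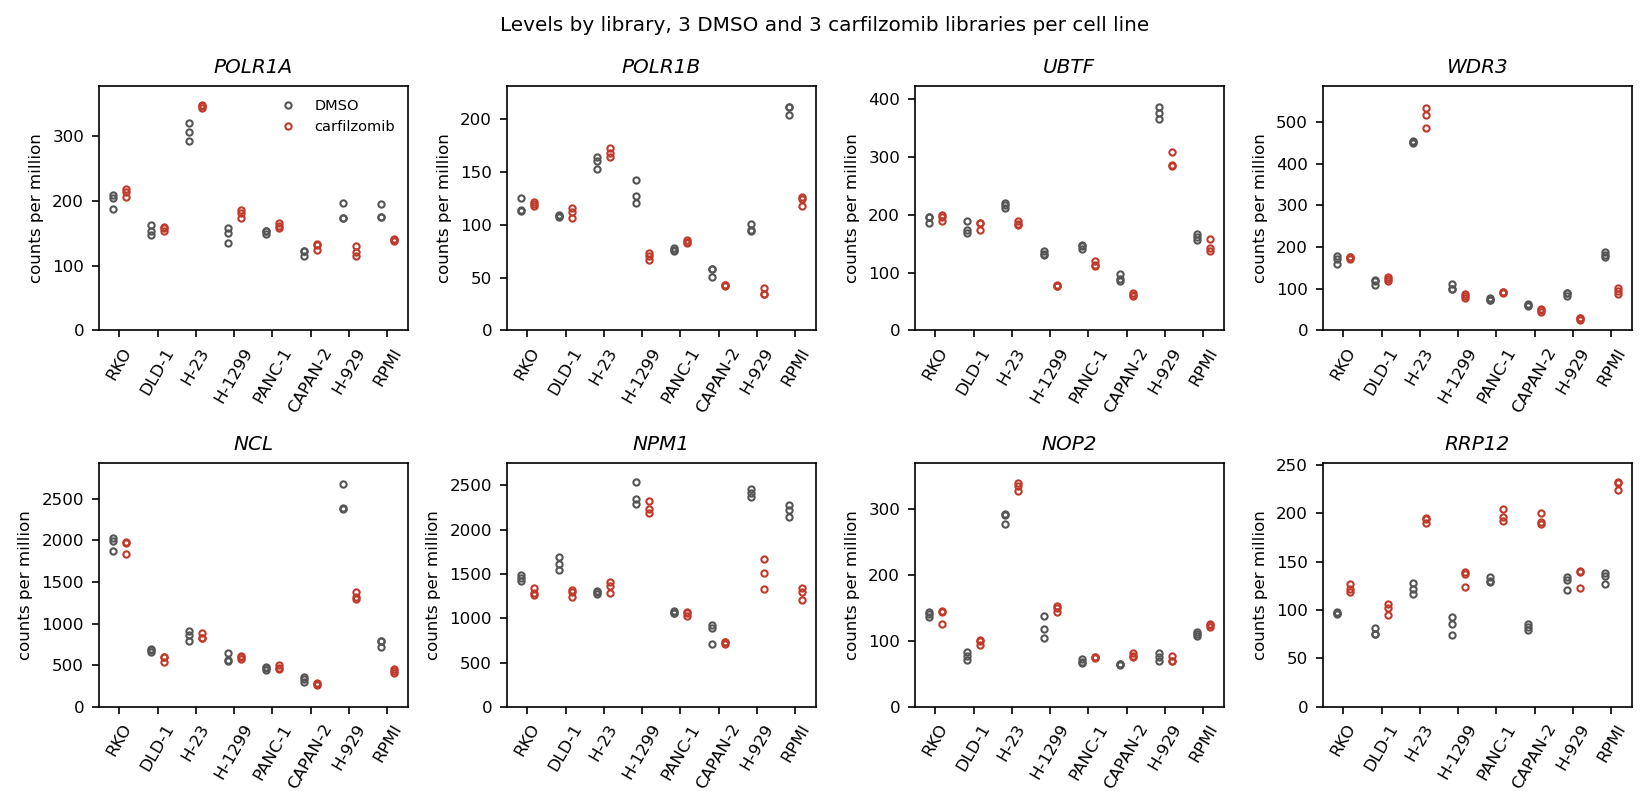
CPM (vertical axes, each from 0) of POLR1A, POLR1B, UBTF, WDR3, NCL, NPM1, NOP2 and RRP12 in the 3 DMSO (grey) and 3 carfilzomib (red) libraries of each of 8 cell lines, scaled within each line. POLR1B, WDR3, NCL and NPM1 step down in H-929 and RPMI, and RRP12 steps up in every line but H-929. POLR1B also steps down in H-1299, and UBTF in H-1299 and CAPAN-2.

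Of the snoRNP proteins and their assembly factors, 4 of 5 fell in H-929 and 4 of 4 tested in RPMI, where 26.2% and 32.2% of all genes fell. DKC1, the pseudouridine synthase dyskerin, went from 308, 329 and 345 CPM to 167, 167 and 161 CPM in H-929, a log2 fold change of -0.99 ± 0.074 (SE, adjusted p = 9.5e-08), and from 108, 117 and 99.1 CPM to 73.3, 72 and 77.7 CPM in CAPAN-2, -0.54 ± 0.066 (SE, adjusted p = 8.4e-06). The groups did not overlap in either line. It also fell in RPMI (-0.31) and H-1299 (-0.29), and RKO, DLD-1, H-23 and PANC-1 gave -0.11, -0.092, -0.075 and -0.026, not called, although H-23 passed with library totals (adjusted p = 0.018) and DESeq2 (adjusted p = 0.0499). NOP56, a core protein of the box C/D snoRNPs, fell in 4 lines, by log2 fold changes of -0.57 in CAPAN-2, -0.43 in H-929, -0.42 in H-1299 and -0.34 in RPMI. Its partner NOP58 fell in H-929 (-0.57), RPMI (-0.34), CAPAN-2 (-0.22) and DLD-1 (-0.17).

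NOLC1, the chaperone Nopp140 of snoRNP assembly, had opposite calls in different lines. It had 575, 562 and 628 CPM in the DMSO libraries and 313, 353 and 319 CPM in the carfilzomib libraries of H-929 and fell by a log2 fold change of -0.84 ± 0.076 (SE, adjusted p = 5.9e-07), and it fell by a log2 fold change of -0.59 in RPMI. It rose by 0.25 in PANC-1, 0.23 in H-23 and 0.20 in H-1299. The difference between myeloma and carcinoma lines was -0.96 ± 0.050 (SE, adjusted p = 5.8e-21). FBL, the methyltransferase fibrillarin, had 0.214, 0.328 and 0.416 CPM in the DMSO libraries and 21.2, 0.429 and 0.458 CPM in the carfilzomib libraries of H-23, where it was called higher on account of carfilzomib replicate 1; similar single high libraries occurred in DMSO groups of other lines.

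Of the members, 8 carry snoRNAs in their introns, 24 in all. In H-929, of 16 of these snoRNAs tested, 7 were higher and 0 lower by edgeR (0 lower at an unadjusted p under 0.05), with a median of 0.98. SNORA51, a guide RNA in an intron of NOP56, went from 4.74, 5.80 and 4.49 CPM to 16, 11.5 and 12.5 CPM, 1.40 ± 0.23 (SE, adjusted p = 0.00014), while NOP56 itself fell. SNORD20, in NCL, went from 2.51, 2.33 and 1.63 CPM to 5.05, 4.65 and 4.60 CPM, 1.13 ± 0.33 (SE, adjusted p = 0.00979), and none of the libraries of either snoRNA overlapped. Their counts were small, at most 158 per library. In the other 7 lines 0 to 2 of 15 to 18 were higher, and in RPMI, where the hosts also fell, 0 of 16 were. Most snoRNA rows outside the members were higher in H-929 too, as given above.

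The small-subunit processome and 18S processing factors fell almost as a whole in the myeloma lines. In H-929 and RPMI 11 of 12 each fell, with medians of -0.83 and -0.37, where 26.2% and 32.2% of all genes fell. All 12 were called lower in the myeloma than in the carcinoma lines, as were 25.2% of all genes. UTP18 lost that call with library totals (-0.11, adjusted p = 0.086). WDR3, a WD-repeat subunit of the processome, showed the largest fall of any member in H-929. It had 83.7, 90.3 and 90.8 CPM in the DMSO libraries and 24.9, 29.8 and 30.4 CPM in the carfilzomib libraries, -1.64 ± 0.11 (SE, adjusted p = 2.7e-08), which is 3.11-fold lower with no overlap. In RPMI it went from 179.8, 177 and 189 CPM to 87.6, 103 and 94.9 CPM, -0.94 ± 0.062 (SE, adjusted p = 1.9e-08). In PANC-1 it rose from 76.6, 73 and 74 CPM to 90.0, 92.8 and 91.5 CPM (0.30), again without overlap, and it rose by 0.18 in H-23, while it fell by a log2 fold change of -0.31 and -0.35 in H-1299 and CAPAN-2. It varied most between lines of the 46 members tested in all 8, with an SD of 0.659 over its 8 log2 fold changes.

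Apart from WDR3 and UTP18, the processome members ranged between -0.93 and -0.45 in H-929. HEATR1, a scaffold needed for pre-rRNA transcription, fell by a log2 fold change of -0.93 there and UTP15, a subunit of the early UTP-A complex, by -0.91. RRP9, the U3 snoRNP protein whose promoter is shown above, fell from 38.2, 43.2 and 41.5 CPM to 22.1, 18.8 and 24.3 CPM in H-929 and from 38.3, 47.1 and 42.3 CPM to 28.3, 26.8 and 25.7 CPM in H-1299, the latter by -0.66 ± 0.080 (SE, adjusted p = 1.1e-05). NAT10, the acetyltransferase of 18S rRNA, fell in H-929 (-0.66), RPMI (-0.32) and H-1299 (-0.30). UTP18 moved least of the 46 members across lines (SD 0.122) and was called in RPMI only (log2 fold change -0.23, SE 0.050, adjusted p = 0.00123), though alternatives gave calls elsewhere. H-23, at -0.10, passed under 7 of them, among them RLE scaling, library totals and DESeq2. RKO passed with DESeq2 (-0.22, adjusted p = 0.043), without the filter (adjusted p = 0.0084) and without DMSO replicate 3 (adjusted p = 0.040), and H-1299 was called higher without DMSO replicate 2 (0.14, adjusted p = 0.0073). UTP4, whose row is uncertain, was higher in H-1299 (0.66) and lower in H-929 (-0.45, adjusted p = 0.0388, and 0.062 with its rows summed). Its call in H-929 was also lost without DMSO replicate 2 or 3 and without carfilzomib replicate 1 or 2. Outside the myeloma lines, 7 of the 12 fell in H-1299 and 5 in CAPAN-2, where 31.3% and 26.7% of all genes fell. In PANC-1 3 rose and in H-23 4, where 20.5% and 17.7% of all genes rose. These counts leave out rises in H-1299 and CAPAN-2, such as that of UTP4 in H-1299.

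The 8 factors of late 40S maturation were counted in the same way. In 5 carcinoma lines they rose more often than they fell. In PANC-1 5 rose and 0 fell (20.5% and 18.2% of all genes). In H-23 4 rose and 0 fell (17.7% and 16.2%), and in CAPAN-2 also 4 and 0 (25.7% and 26.7%). In H-1299 6 rose and 1 fell (29.8% and 31.3%), and in DLD-1 3 rose and 1 fell (10.9% and 12.1%). The median was 0.17 in PANC-1, 0.16 in H-23, 0.17 in CAPAN-2 and 0.29 in H-1299. In H-929, 6 of 8 fell (median -0.38), where 26.2% of all genes fell. In RPMI 3 fell and 2 rose (median 0.011), where 32.2% and 31.3% of all genes did. LTV1, which leaves the 40S particle late in its maturation, fell by a log2 fold change of -0.85 ± 0.089 (SE, adjusted p = 2.6e-06) in H-929 and gave 0.018 in RPMI, not called, a difference between the 2 lines of -0.94 ± 0.10 (SE, adjusted p = 1.5e-10). The kinase gene RIOK2 gave a difference of -0.94 ± 0.096 (SE, adjusted p = 4e-11), with -0.75 in H-929, 0.098 in RPMI and 0.49 in H-1299.

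RRP12, an export factor of the pre-40S particle that also acts on the 60S, was the member called higher in the most lines. It rose in 7 of 8, a count reached by 1 of the 46 members tested in all 8 lines and by 1.33% of all genes. In CAPAN-2 it had 79.6, 85.1 and 82.8 CPM in the DMSO libraries and 199.8, 191 and 188 CPM in the carfilzomib libraries, 1.23 ± 0.055 (SE, adjusted p = 3.3e-10). In RPMI it had 138, 127 and 135 CPM in the DMSO libraries and 232, 231 and 224 CPM in the carfilzomib libraries, 0.78 ± 0.053 (SE, adjusted p = 2.2e-08), although most other members fell there. In PANC-1 it went from 129, 134 and 129.7 CPM to 196, 192 and 204 CPM and in RKO from 95.8, 97.2 and 98.3 CPM to 122, 127 and 119 CPM, where it was the only rise of a member. The groups were apart in all 7 lines, and in DLD-1, H-23 and H-1299 the log2 fold changes were 0.38, 0.66 and 0.67. In H-929 the groups overlapped: RRP12 had 134, 121 and 131 CPM in the DMSO libraries and 123, 139 and 140.3 CPM in the carfilzomib libraries, 0.060 ± 0.084 (SE, adjusted p = 0.579). The difference between H-929 and RPMI was -0.80 ± 0.085 (SE, adjusted p = 1.1e-10), and the difference between myeloma and carcinoma lines, -0.33, turned to 0.095 without H-929. BYSL, which encodes bystin of the late 40S, was among the least variable members (SD 0.178) and was called higher in H-1299 (0.36), RPMI (0.19) and H-23 (0.17); the calls in RPMI and H-23 were lost without several single libraries. Its difference between myeloma and carcinoma lines, -0.18 (adjusted p = 0.0334), was lost under RLE scaling (adjusted p = 0.27), library totals (0.81) and scaling within each line (0.51).

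Of the 16 factors of 60S assembly, 14 fell and 2 rose in RPMI and 9 fell in H-929, with medians of -0.61 and -0.51. Of all genes, 32.2% fell and 31.3% rose in RPMI and 26.2% fell in H-929. RRP1B, a nucleolar protein of pre-60S particles, had 244, 244 and 271 CPM in the DMSO libraries and 112, 109.8 and 117 CPM in the carfilzomib libraries of H-929 and 308, 306 and 331 CPM in the DMSO libraries and 168, 168 and 153 CPM in the carfilzomib libraries of RPMI. Both pairs of groups were apart, at -1.16 ± 0.078 (SE, adjusted p = 3.4e-08) and -0.95 ± 0.057 (SE, adjusted p = 7.2e-09). RRP1B also fell in CAPAN-2 (-0.41) and H-1299 (-0.32), and rose by 0.17 in PANC-1. MRTO4, which holds the place of the stalk protein on the pre-60S and whose promoter is shown above, fell by a log2 fold change of -0.95, -0.67, -0.31 and -0.19 in H-929, RPMI, CAPAN-2 and H-1299. WDR12 of the PeBoW complex fell by a log2 fold change of -0.97 and -0.69 in the myeloma lines, and its partner PES1 by -0.67 and -0.35.

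BOP1, the other PeBoW subunit, and NOP16 were among the 4 members called with a higher response in H-929 than in RPMI, with RRP1 and PPAN. BOP1, whose row is uncertain, had 226, 218 and 233 CPM in the DMSO libraries and 103, 109.6 and 111 CPM in the carfilzomib libraries of RPMI, -1.06 ± 0.053 (SE, adjusted p = 1.3e-09), the largest fall of a member in that line. In H-929 it had 31.4, 27.4 and 39.5 CPM in the DMSO libraries and 26, 21.3 and 31.5 CPM in the carfilzomib libraries, overlapping and not called at -0.32 ± 0.16 (SE, adjusted p = 0.119); the replicate block (adjusted p = 0.042) and the data without the filter (adjusted p = 0.013) gave a call. It also fell in CAPAN-2 (-0.84, the largest fall there) and H-1299 (-0.83), and its fall in H-23 (-0.15) was lost without any of 4 single libraries. NOP16 fell by a log2 fold change of -1.02 in RPMI, -0.64 in H-1299 and -0.36 in CAPAN-2, rose by 0.19 in PANC-1, and was not called in H-929 (-0.21). The differences, H-929 minus RPMI, were 0.67 ± 0.16 (SE, adjusted p = 0.00044) for BOP1 and 0.73 ± 0.14 (SE, adjusted p = 2e-05) for NOP16. They were 0.39 ± 0.090 (SE, adjusted p = 0.00043) for RRP1 and 0.47 ± 0.19 (SE, adjusted p = 0.0404) for PPAN, both lower in RPMI and not called in H-929.

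The 60S list also held 2 of the 3 members with a rise on average. NOP2, a cytosine methyltransferase of 28S rRNA, and RRP12 were the 2 members called higher in at least 6 lines. They were 2 of the 46 members tested in all 8 lines, and 4.06% of all genes reached that count. NOP2 was called higher in 6 lines, with log2 fold changes of 0.13 (PANC-1) to 0.35 (DLD-1). In DLD-1 it had 82.6, 77.8 and 70.9 CPM in the DMSO libraries and 100.3, 94.3 and 101 CPM in the carfilzomib libraries, with every carfilzomib library higher. RKO and H-929 gave -0.020 and -0.077, not called, and the calls in PANC-1 and RPMI were each lost without 1 or more single libraries. NVL, an AAA ATPase that acts on the pre-60S, rose in H-1299 (log2 fold change 0.59, SE 0.061, adjusted p = 2.7e-06), RPMI (log2 fold change 0.57, SE 0.076, adjusted p = 1.7e-05) and CAPAN-2 (log2 fold change 0.35, SE 0.056, adjusted p = 9.5e-05). In H-1299 it went from 27.5, 29.3 and 27.7 CPM to 41.4, 43.9 and 41.4 CPM, and in RPMI from 54.4, 52.9 and 57.6 CPM to 71.3, 84.9 and 88.7 CPM; in both the groups were apart. In H-929 it gave 0.11, not called.

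The multifunctional nucleolar proteins were the most abundant members per length on average over the lines, and fell in both myeloma lines. NCL had 2387, 2383 and 2675 CPM in the DMSO libraries and 1382, 1291 and 1319.8 CPM in the carfilzomib libraries of H-929, -0.90 ± 0.072 (SE, adjusted p = 1.8e-07), and 789, 724 and 789 CPM in the DMSO libraries and 426, 401 and 451 CPM in the carfilzomib libraries of RPMI, -0.85 ± 0.059 (SE, adjusted p = 2.8e-08). Its carfilzomib libraries were below the DMSO libraries in both, and the difference between the 2 lines, -0.13 ± 0.089 (SE, adjusted p = 0.251), did not pass the test. NPM1 had 2364, 2464 and 2413 CPM in the DMSO libraries and 1672, 1514 and 1336 CPM in the carfilzomib libraries of H-929 and 2284, 2143 and 2224 CPM in the DMSO libraries and 1300.5, 1343 and 1211 CPM in the carfilzomib libraries of RPMI, again without overlap, at -0.68 ± 0.081 (SE, adjusted p = 8.1e-06) and -0.79 ± 0.054 (SE, adjusted p = 2.4e-08). Besides the myeloma lines NPM1 fell in DLD-1 (log2 fold change -0.33, SE 0.043, adjusted p = 0.00034), in RKO (log2 fold change -0.16, SE 0.037, adjusted p = 0.0155) and in CAPAN-2 (log2 fold change -0.21, SE 0.081, adjusted p = 0.041). The calls in RKO and CAPAN-2 were lost without single libraries, in RKO without DMSO replicate 3 (adjusted p = 0.066) and carfilzomib replicates 1 (0.051) and 3 (0.088), and in CAPAN-2 without any of 5; the CAPAN-2 call was also lost under RLE scaling (adjusted p = 0.060) and the replicate block (adjusted p = 0.061). NPM1 has many near-identical processed pseudogenes, between which the counting could split reads. DDX21, an RNA helicase of rDNA transcription and processing, fell more in H-929, from 279, 301 and 307 CPM to 146, 134 and 122 CPM (-1.14), than in RPMI (-0.49), a difference of -0.73 ± 0.082 (SE, adjusted p = 5.7e-10).

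Lines of one tumour type could differ from each other. H-929 and RPMI differed in 37 members, 33 with the lower response in H-929 (40.5% of all genes differed, 21.5% with the lower response in H-929). H-1299 and H-23 differed in 23, of which 20 were lower in H-1299 (30.8% and 17.5% of all genes), led by POLR1B at -1.02 ± 0.075 (SE, adjusted p = 9e-15). CAPAN-2 and PANC-1 differed in 18, of which 16 were lower in CAPAN-2 (24.9% and 11.4%), led by BOP1 at -0.92 ± 0.13 (SE, adjusted p = 4.4e-07) and WDR3 at -0.62 ± 0.089 (SE, adjusted p = 2.5e-07). RKO and DLD-1 differed in 3 (4.04% of all genes): NOP2 at -0.37 ± 0.092 (SE, adjusted p = 0.0131), TSR1 at -0.28 ± 0.082 (SE, adjusted p = 0.0385) and NOB1 at 0.30 ± 0.084 (SE, adjusted p = 0.0284). These 3 became 0 without replicate 1 and 1 without replicate 2 of every group. Of the 48 members, 25 were called higher in 1 line and lower in another, against 47.8% of all genes. The widest spread over lines after WDR3 was that of POLR1B (SD 0.575) and RRP1B (SD 0.488); NOP2 (SD 0.155) varied little.

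Further genes of ribosome production, 110 rows in 5 lists, were also mostly lower in the myeloma lines. In H-929 5 higher and 62 lower of 101 tested were called (26.4% and 26.2% of all genes). In RPMI 23 higher and 53 lower of 103 were called (31.3% and 32.2%). The medians were -0.36 and -0.19. The response was lower in myeloma lines for 86 and higher for 6 of 105 (25.2% and 19.1% of all genes). In 4 carcinoma lines these genes were higher more often than lower. In H-1299 53 were higher and 26 lower of 103 (29.8% and 31.3% of all genes), and in CAPAN-2 41 and 19 of 103 (25.7% and 26.7%). In PANC-1 44 were higher and 9 lower of 101 (20.5% and 18.2%), and in H-23 41 and 11 of 103 (17.7% and 16.2%). In these 4 lines the members' own medians were on both sides of 0. By list, H-929 gave 3 higher and 27 lower of 37 other 60S genes, 0 higher and 20 lower of 30 other processome genes, 0 higher and 9 lower of 14 genes of the RNA exosome, 0 higher and 4 lower of 11 other snoRNP genes and 2 higher and 2 lower of 9 other RNA polymerase I genes.

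The largest averages among these genes went in both directions. MPHOSPH10, a processome subunit, rose in 5 lines, in CAPAN-2 from 36.7, 36.2 and 32.8 CPM to 76.2, 70.5 and 69.5 CPM (log2 fold change 1.04, SE 0.065, adjusted p = 7.7e-09), with an average of 0.32. DDX27, a helicase of 60S assembly, rose in 6 lines, in H-1299 from 99.6, 106 and 106 CPM to 181, 184 and 189.6 CPM (log2 fold change 0.83, SE 0.043, adjusted p = 5.6e-09), with an average of 0.35. Neither was called in H-929 (0.048 and 0.022). NOP9 had the largest average, 0.91, but it rested on single libraries, as in DLD-1, where it had 0.457, 0.331 and 0.420 CPM in the DMSO libraries and 0.574, 13.7 and 0.733 CPM in the carfilzomib libraries. NHP2, an H/ACA snoRNP protein, fell in 5 lines, in RPMI from 125, 115 and 109 CPM to 48.8, 52.6 and 44.1 CPM (log2 fold change -1.26, SE 0.072, adjusted p = 4.3e-09), with an average of -0.47. The exosome genes EXOSC6 and EXOSC9 averaged -0.47 and -0.33; EXOSC6 fell in 6 lines, in H-1299 from 88.4, 89.9 and 84.6 CPM to 37.5, 35.8 and 37.5 CPM, and EXOSC9 fell in 7 lines and rose in H-1299 (0.24).

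The genes of the ribosomal proteins themselves were also counted. In H-929, 37 higher and 8 lower of 75 cytosolic ribosomal protein genes were called (26.4% and 26.2% of all genes), with a median of 0.24. In RPMI 12 higher and 19 lower of 75 were called (31.3% and 32.2% of all genes), with a median of -0.020. MYC, a known regulator of the members, went from 1058, 1003 and 1041 CPM to 527, 518 and 464 CPM in RPMI (log2 fold change -1.04, SE 0.058, adjusted p = 3.5e-09). In H-929, where the members fell most, it had 869.7, 859 and 901 CPM in the DMSO libraries and 775, 735 and 883 CPM in the carfilzomib libraries, with overlap and no call (log2 fold change -0.14, SE 0.077, adjusted p = 0.157). It rose in PANC-1 (0.76), H-23 (0.74), DLD-1 (0.18) and RKO (0.16) and fell in H-1299 (-0.41) and CAPAN-2 (-0.28). Its summed network of 11 genes lay at 1411 to 1473 CPM in DMSO and 1335 to 1544 CPM after carfilzomib in H-929, and at 1423 to 1479 and 864 to 928 CPM in RPMI. The part of MYC in the members' response was not tested.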

How the data were processed

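RNA of 48 libraries was sequenced from stranded total RNA libraries, per the labels' protocols. The authors deposited raw counts per gene, 1 column per library and 33892 rows, each naming a gene. The submitters' processing notes name bcl2fastq 2.19, FastQC, Trimmomatic, HISAT2, DESeq2 and the build hg38; the counting program and its strand setting are not given in the sources used here.

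Groups and replicate numbers were taken from the labels. Genes were filtered with filterByExpr and scaled by TMM, and tested by edgeR 4.0.16 (quasi-likelihood F test, R 4.3.3): per line on its 6 libraries, and in 1 fit of 48 libraries for the average, for differences between lines and for myeloma against carcinoma lines. Every adjusted p is Benjamini-Hochberg over all genes tested, and a call is an adjusted p under 0.05. CPM of a line uses that line's scaling. Exon lengths and host genes are from GENCODE 29, promoters from RefSeq. DESeq2 1.42.0, limma 3.58.1 (cell lines as units), RLE, library totals, no filter, summed rows, a replicate block and left-out libraries or lines were alternatives, of which cell lines as units for the myeloma difference, left-out lines for it and scaling within each line were chosen after seeing the data. The tests were tried on simulated data with known changes. All genes of a simulation had the same spread, so that trial did not cover single outlying libraries.

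Members and lists were chosen with earlier results of these data known. Genes named are 7 fixed ones (POLR1A, POLR1B, UBTF, RRN3, FBL, NCL, NPM1), those with the largest average, largest change in a line, largest and smallest spread and most lines called, the uncertain rows, and the 3 other ribosome biogenesis genes with the largest average in each direction; members named beyond these were chosen after their values were seen. Replicates of a group differed beyond counting noise. Counting error limits the precision for rows with few counts, and the libraries of FBL and RRN3 scattered beyond it.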

Additional observations from a re-analysis of the deposited data

Results flagged for a closer look

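The response to carfilzomib was tested for differences between lines and groups of lines by edgeR, with the error taken from replicates within lines. Each result listed here passed such a test. It differed between the 8 lines for 47 members, and 43 members were lower in myeloma than in carcinoma lines (67.7% and 25.2% of all genes). Between lines of one tumour type it differed for 37 members (H-929 and RPMI), 23 (H-1299 and H-23), 18 (CAPAN-2 and PANC-1) and 3 (RKO and DLD-1). In the same order, 40.5%, 30.8%, 24.9% and 4.04% of all genes differed. The count of RKO and DLD-1 became 0 without replicate 1 of every group. Among the members named by rule, the difference of the myeloma from the carcinoma lines on the log2 scale was -1.38 for WDR3, -1.07 for RRP1B, -1.04 for POLR1B and -0.90 for NCL. It was -0.71 for NPM1, -0.71 for POLR1A, -0.64 for UTP4, -0.57 for DKC1 and -0.48 for BOP1. It was smaller for RRP12 (-0.33), NOP2 (-0.28), UTP18 (-0.25) and BYSL (-0.18). With cell lines as units, limma called WDR3, RRP1B, NCL, NPM1 and POLR1A lower. It did not call POLR1B, UTP4, DKC1, BOP1, RRP12, NOP2, UTP18 or BYSL (adjusted p from 0.089 to 0.60). No rule for single outlying values was applied to these groups of 3 libraries, but single high libraries of FBL, RRN3 and NOP9 are described above.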

How the results depend on the processing

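With 1 library left out, members called lower ranged from 34 to 38 in H-929 and from 37 to 38 in RPMI, and members called higher from 0 to 1 and from 3 to 5. The same ranges, higher then lower, were 1 to 1 and 0 to 1 in RKO, 3 to 8 and 4 to 9 in DLD-1, 10 to 13 and 1 to 3 in H-23, 11 to 17 and 19 to 23 in H-1299, 10 to 19 and 1 to 2 in PANC-1, and 8 to 10 and 16 to 23 in CAPAN-2. Over left-out replicates and lines the average gave 3 to 9 higher and 30 to 38 lower members, the response differed between lines for 46 to 48, and the myeloma difference was higher for 0 to 1 and lower for 39 to 45. Pair differences ranged from 12 to 19 (CAPAN-2 and PANC-1), 18 to 21 (H-1299 and H-23), 28 to 33 (H-929 and RPMI) and 0 to 2 (RKO and DLD-1). In RKO, library totals gave 2 higher, and no filter gave 3 lower, DESeq2 2 and the replicate block 2. In H-23, members lower were 7 under library totals, 6 with no filter, 4 with DESeq2 and 4 with the replicate block. No filter gave 1 higher in H-929 and 2 in RPMI. The average gave 5 higher under library totals and 5 with scaling within each line, and 0 higher and 0 lower with cell lines as units. The myeloma difference gave 1 higher under RLE, library totals and scaling within each line, and 16 lower with cell lines as units.

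Replicate numbers did not pair libraries (correlations of deviations from -0.11 to 0.068), and in 1 line, H-23, each library was closest to its own number; the replicate block moved no other count by over 1.5 times. Of 6360 values of single members under an alternative, 290 lost the call, 109 gained it and 13 changed sign. The other 5948 kept the call and its direction, or were called in neither fit. Sign was compared only where the main fit or the alternative gave a call. With rows summed, RRN3 in PANC-1 changed sign (1.64). The others of the 13 came from leaving out 1 library or line, over which these values ranged as follows. FBL in CAPAN-2 ran from -5.16 (without CAPAN-2 carfilzomib replicate 1) to 3.58 (without CAPAN-2 DMSO replicate 2). FBL in H-929 ran from -2.49 (without H-929 carfilzomib replicate 3) to 2.78 (without H-929 DMSO replicate 2). NOLC1 on average ran from -0.16 (without PANC-1) to 0.011 (without H-929). UTP15 on average ran from -0.15 (without CAPAN-2) to 0.042 (without H-929). LTV1 on average ran from -0.11 (without CAPAN-2) to 0.057 (without H-929). RIOK2 on average ran from -0.095 (without H-1299) to 0.094 (without H-929). NOB1 on average ran from -0.045 (without H-1299) to 0.071 (without H-929). GRWD1 on average ran from -0.080 (without CAPAN-2) to 0.061 (without H-929). POLR1A on average ran from -0.10 (without H-1299) to 0.030 (without H-929). RRP12 in the myeloma difference ran from -0.74 (without RPMI) to 0.095 (without H-929). BYSL in the myeloma difference ran from -0.38 (without RPMI) to 0.048 (without H-929). NVL in the myeloma difference ran from -0.21 (without RPMI) to 0.37 (without H-929). NVL passed the test at both of its ends. The cause was not tested.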
